A study of Mus musculus with 37 samples.

Results

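The 10 genes followed here belong to the endoplasmic reticulum (ER) stress response and were measured across splenocyte cultures: HSPA5, HSP90B1, CALR, PDIA3, PDIA4, PDIA6, XBP1, ATF4, DDIT3 and TRIB3. They were chosen by name, with earlier results of these data known, and make up 10 of the 60708 gene rows of the count table. Of these 10, 9 had enough counts to be tested among 5193 gene IDs, and TRIB3 had no count in any library. The 7 genes for ER chaperones, isomerases and XBP1 all had their highest mean levels in splenocytes given RAW264.7 medium. DDIT3 had its lowest mean there, and neither DDIT3 nor ATF4 passed the test for any difference among the 13 groups.

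The cultures were splenocytes of wild-type FVB mice, collected after 48 h with RAW264.7 cells, a mouse macrophage-like tumour line, or with the medium of those cells. The RAW264.7 cells had been kept for 72 h at 21% oxygen (normoxia) or 1% oxygen (hypoxia), without SPP1 or with SPP1 (osteopontin) at 1 µg/mL. The splenocytes received the medium alone (medium mode), the cells without a wash (cells mode) or the cells after a wash (washed mode). The 2 oxygen levels and 2 SPP1 states in 3 modes gave 12 exposed groups, and naive splenocytes, with neither cells nor medium, made 13 groups and 37 libraries. Of these groups, 11 had 3 libraries, whereas naive and medium, normoxia, no-SPP1 had 2 each. Neither the number of mice nor pooling was stated, and all exposures used 1 cell line. For the naive splenocytes no culture time was given, so a difference from naive cannot be told apart from one made by 48 h of culture. One protocol text, given for all 37 libraries, adds brefeldin A at the end of the culture, a blocker of ER-to-Golgi transport that is itself used to evoke ER stress. Its part in the levels below was not tested.

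The unfolded protein response is the reaction of a cell to misfolded protein in the ER. The sensors IRE1, PERK and ATF6 sit in the ER membrane. IRE1 splices XBP1 mRNA, and spliced XBP1 and cleaved ATF6 raise the transcription of ER chaperones and folding enzymes. PERK phosphorylates eIF2α, which favours translation of ATF4, and ATF4 in turn raises DDIT3 (CHOP) and TRIB3. Plasma cells, which secrete antibody, are known for their high levels of XBP1 and ER chaperones. The counts used here come from the 3′ ends of mRNA and do not separate spliced from unspliced XBP1.

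Chaperone promoters carry the ER stress response element, CCAAT and CCACG with 9 bases between them, which is read by ATF6 and XBP1 together with NF-Y. Both strands of the mouse promoters, from 250 bases before to 50 after the start, were searched for it. All 10 genes had 1 mouse promoter in RefSeq (GRCm38.p6). The element was in 4 of the 10, those of Hspa5, Hsp90b1, Calr and Pdia6, against 0.119% of 32851 promoters. The stretches that hold it are shown 5′ to 3′ on the strand of the gene because they carry the element. Capitals mark the 2 parts of each match, which read CGTGG and ATTGG where the element lies on the opposite strand.
Hspa5, chr2:34771995-34772073 (+ strand): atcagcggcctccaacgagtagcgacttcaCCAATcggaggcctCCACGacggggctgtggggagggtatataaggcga
Hsp90b1, chr10:86705503-86705686 (− strand): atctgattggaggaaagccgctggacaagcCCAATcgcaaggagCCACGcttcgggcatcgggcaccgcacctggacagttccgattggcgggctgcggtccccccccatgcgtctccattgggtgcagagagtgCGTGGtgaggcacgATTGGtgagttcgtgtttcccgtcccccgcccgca
Calr, chr8:84847045-84847123 (− strand): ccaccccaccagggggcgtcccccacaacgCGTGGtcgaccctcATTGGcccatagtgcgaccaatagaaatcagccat
Pdia6, chr12:17266461-17266539 (+ strand): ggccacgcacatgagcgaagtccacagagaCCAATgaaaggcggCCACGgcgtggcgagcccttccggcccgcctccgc
Hsp90b1 holds 2 copies, 1 on each strand, and the others hold 1. Counted from the start, the match spans positions −65 to −47 in Hspa5 and −162 to −144 in Calr. CCAAT alone, which the element contains, was in 8 of the 10 promoters and in 37.4% of all. The unfolded protein response element TGACGTGG was in 0 of the 10 and in 0.676% of all. The C/EBP-ATF element (TGATG, any base, AA) was in 1 of the 10, that of Trib3, and in 3.97% of all. These matches describe letters in the windows of the mouse reference, and binding was not measured. The genes were chosen by name from the ER stress response, so the contrast with all promoters is a description and not a test.

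Mouse reads had been aligned to the human genome and counted at human gene IDs, so levels are compared between libraries and not between genes. Library totals ran from 631574 to 1337314 counts, with a median of 1063211. In the medium mode, 0.944% ± 0.241 (SD, n = 11) of all counts fell on the 10 genes. Their share was 0.286% ± 0.0274 (n = 12) in the cells mode, 0.25% ± 0.0439 (n = 12) in the washed mode and 0.291% ± 0.017 (n = 2) in naive splenocytes. Most of these counts were those of HSP90B1 and HSPA5, with means of 3190 and 1543 per library. The next, PDIA6, had a mean of 184.8, so the share mainly follows these 2 genes. A pair of medium libraries stood apart from the other 9 on the first principal component (33.2% of the variance). They were hypoxia, no-SPP1 replicate 1, at −11.6, and normoxia, no-SPP1 replicate 3, at −10.7, where the other medium libraries lay between −57.5 and −41.5. Their share of the 10 genes was 0.453% and 0.538%. On the second component (12.3%), 4 libraries stood apart, at −54.4 to −31.8: cells, hypoxia, no-SPP1 replicate 2 and, among washed libraries with SPP1, replicate 1 of hypoxia and replicates 1 and 2 of normoxia. Where these 6 libraries change a call, the log2 change is given with and without them. The labels give a minimum RNA integrity and also a range that reaches below it, with no value per library, so its part in these libraries was not tested. Cell type markers could not be read, since no table used here pairs the other human IDs with symbols. In bulk RNA, fewer cells of a type and less RNA per cell cannot be told apart, nor can RNA of RAW264.7 cells left in the cells and washed cultures be told apart from that of splenocytes.

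HSPA5 (ENSG00000044574) encodes BiP, the ER chaperone that holds the stress sensors inactive. Its level in CPM (counts scaled to a common library size with TMM factors) was 918.4 and 574.4 in the naive libraries. In the medium mode it ran from 1098 to 4135, with a median of 2525 (n = 11). The cells mode held 767.7 to 1147, median 924.5 (n = 12), and the washed mode 442.6 to 1101, median 796.3 (n = 12). Thus 10 of the 11 medium libraries were above all 26 others, and hypoxia, no-SPP1 replicate 1 was the exception. By group, the 4 medium groups had the highest means: 3090 ± 1480 CPM (SD, n = 2) for normoxia without SPP1, 2784 ± 344 for hypoxia with SPP1, 2534 ± 84 for normoxia with SPP1 and 2096 ± 867 (n = 3 each) for hypoxia without SPP1. The order within these 4 lay inside their spread. The next group, washed, normoxia, no-SPP1, was at 1034 ± 82.8, and washed, hypoxia, SPP1 was last at 656.1 ± 220 (n = 3 each).

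HSP90B1 (ENSG00000166598) encodes GRP94, the HSP90 paralogue of the ER and a chaperone of integrins and Toll-like receptors. Its naive levels were 1744 and 1523 CPM. Medium libraries ran from 2633 to 8049 CPM, with a median of 5501. Cells libraries ran from 1475 to 2160 (median 1717) and washed libraries from 1152 to 2143 (median 1815). All 11 medium libraries were above all 26 others. The medium group means fell from 7011 ± 901 CPM in hypoxia with SPP1 to 5729 ± 629 in normoxia with SPP1, 5180 ± 2490 in hypoxia without SPP1 (n = 3 each) and 3856 ± 1730 (n = 2) in normoxia without SPP1. The libraries of neighbouring groups in this order overlapped. The remaining 9 groups lay between 1581 and 1979.

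PDIA6 (ENSG00000143870) and PDIA4 (ENSG00000155660) are protein disulfide isomerases, which form and rearrange disulfide bonds. PDIA6 was at 90.77 and 91.17 CPM in naive splenocytes and at 99.05 to 448.8 (median 345.3) in the medium mode. Its levels were 87.69 to 127.5 (median 98.28) in the cells mode and 28.16 to 185.7 (median 110.4) in the washed mode. The lowest medium values, 99.05 and 129.5, belonged to the pair that stood apart, and the other 9 ran from 228.1 to 448.8, above all 26 remaining libraries. PDIA4 was at 28.3 and 18.23 CPM in naive splenocytes and at 26.21 to 92.28 (median 42) in the medium mode. It was at 13.94 to 25.72 (median 22.76) in the cells mode and at 6.626 to 31.81 (median 20.53) in the washed mode. The medium and cells ranges of PDIA4 did not overlap, whereas medium and washed did.

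**Figure D1:**
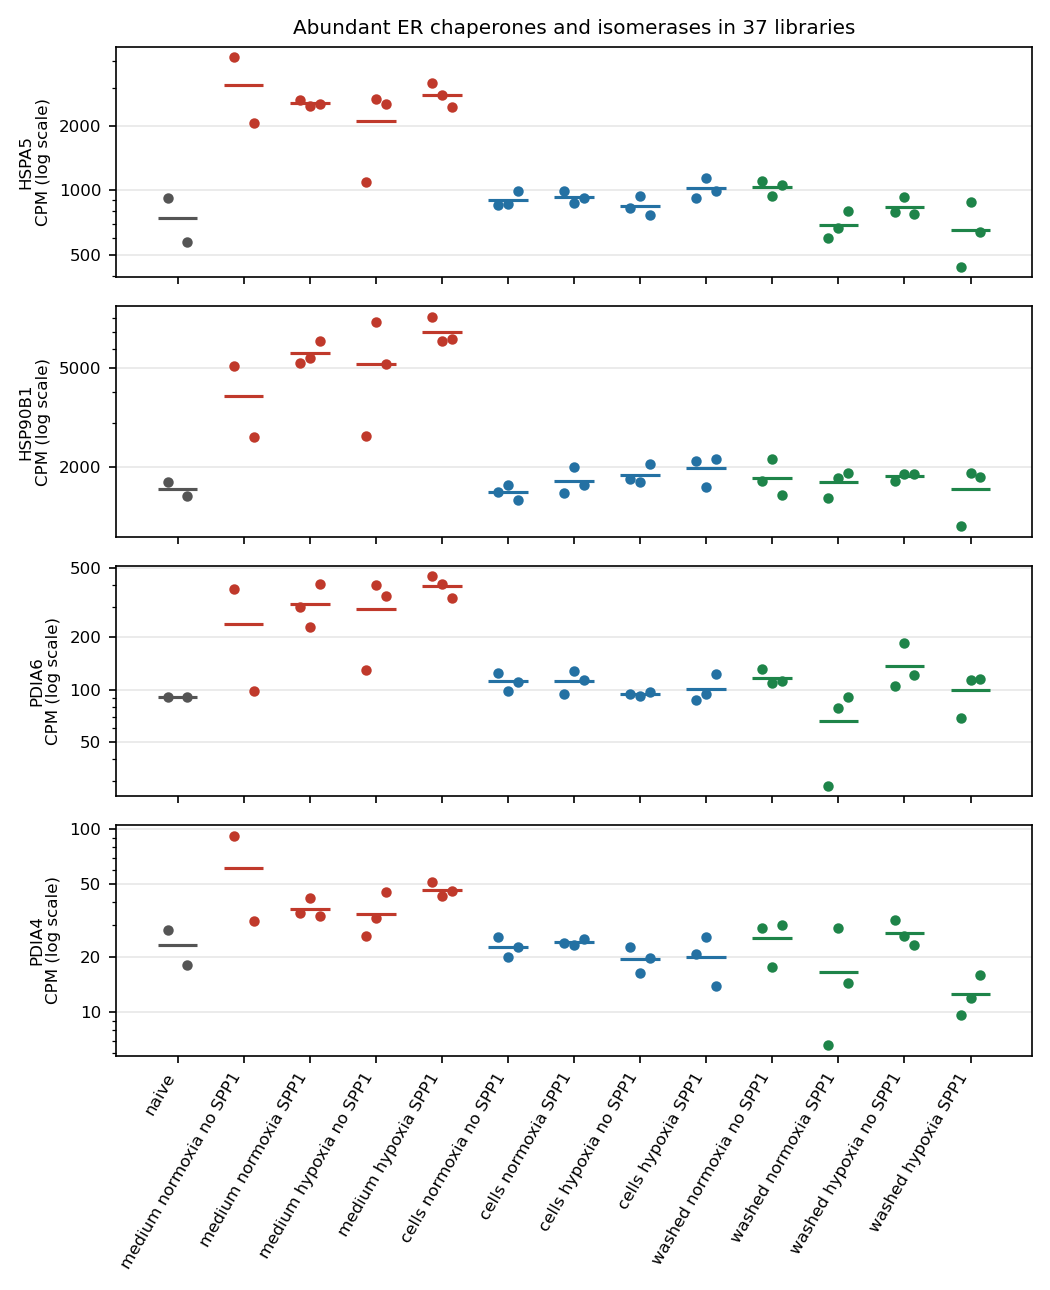
CPM (log scale) of HSPA5, HSP90B1, PDIA6 and PDIA4 in each of 37 libraries (points) with the group mean (line), by group; naive grey, medium red, cells blue, washed green. The 11 medium libraries of HSP90B1 lie between 2633 and 8049, above all 26 others, and hypoxia, no-SPP1 replicate 1 and normoxia, no-SPP1 replicate 3 are the low medium points.

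CALR, PDIA3, XBP1 and ATF4 had few counts, with means of 17.6, 16.4, 7.57 and 5.59 counts per library. XBP1 and ATF4, under 10, are poorly captured, and raw counts are given for all 4. CALR (ENSG00000179218) encodes calreticulin, a chaperone of glycoproteins that binds calcium, and PDIA3 (ENSG00000167004) is the isomerase that works with it. CALR had 6 and 10 counts in naive libraries, 12 to 48 (median 37) in medium, 5 to 29 (median 13) in cells and 0 to 16 (median 8.5) in washed libraries. PDIA3 had 11 and 5 counts in naive libraries, 20 to 77 (median 24) in medium, 3 to 22 (median 13) in cells and 4 to 16 (median 8) in washed libraries. For both genes the medium counts overlapped those of the cells mode.

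XBP1 (ENSG00000100219), the transcription factor spliced by IRE1, had 5 and 2 counts in naive libraries. Medium libraries held 34 and 4 in normoxia without SPP1, 19, 10 and 24 in normoxia with SPP1, 11, 17 and 21 in hypoxia without SPP1, and 11, 23 and 14 in hypoxia with SPP1. The cells mode held 0 to 10 counts (median 5) and the washed mode 0 to 4 (median 2). In 3 washed libraries and 1 cells library XBP1 was at 0, which allows up to 3 counts. XBP1 passed the filter on low counts only through medium libraries, 10 of which were at or above its cutoff of 9.41 CPM, so a difference from the other modes was built into its being tested. Its changes in the fit with that filter are therefore given as descriptions, beside those of the fit with no filter.

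ATF4 (ENSG00000128272), the transcription factor downstream of PERK, is regulated largely by translation, which these counts do not measure. It had 6 and 7 counts in naive libraries, 4 to 14 (median 8) in medium, 0 to 27 (median 2) in cells and 0 to 11 (median 4) in washed libraries. Of 12 cells libraries, 11 held 5 counts or fewer, and hypoxia, no-SPP1 replicate 2, one of the libraries that stood apart, held 27. ATF4 passed the filter through 3 medium libraries, 1 cells, 1 washed and 1 naive library.

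**Figure D2:**
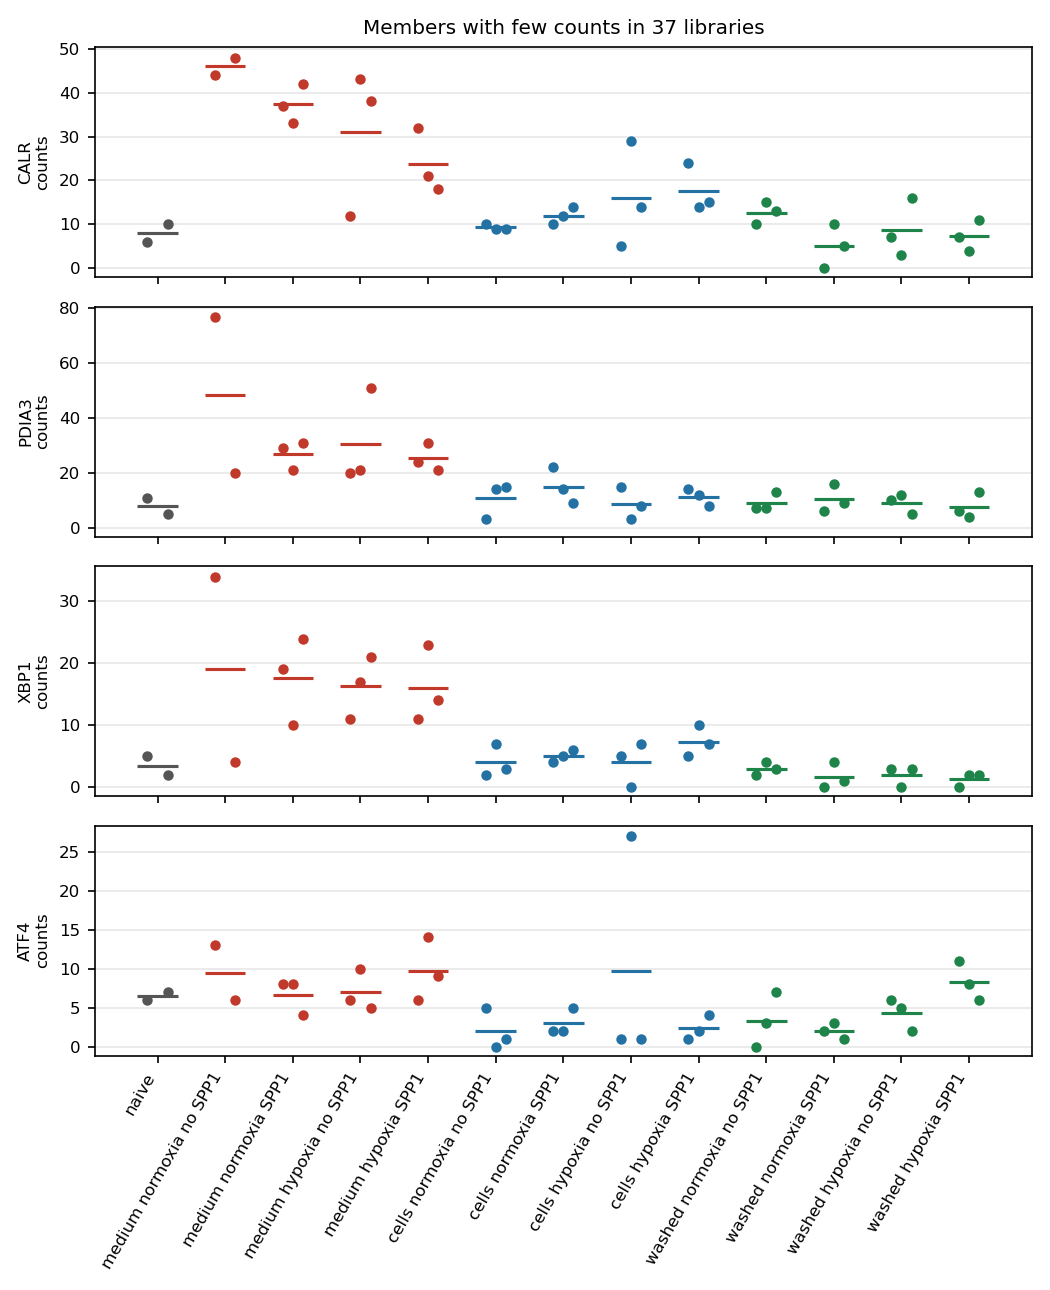
Raw counts of CALR, PDIA3, XBP1 and ATF4 in each of 37 libraries (points) with the group mean (line), by group. Medium libraries hold 4 to 34 XBP1 counts and washed libraries 0 to 4, and 1 cells library holds 27 ATF4 counts.

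TRIB3 (ENSG00000101255), a pseudokinase induced by ATF4 and DDIT3, was at 0 in all 37 libraries. A count of 0 allows up to 3 counts, or 2.01 to 4.97 CPM depending on the library, for counting error only. Its level was therefore not detectable at this depth and with this alignment.

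DDIT3 (ENSG00000175197) encodes CHOP, a transcription factor that ATF4 induces and that is tied to cell death in prolonged ER stress. It was at 55.63 and 56.01 CPM in naive libraries. Medium libraries ran from 20.73 to 90.68 (median 33.86), cells libraries from 30.63 to 78.99 (median 48.1) and washed libraries from 20.92 to 104.6 (median 53.18). The highest medium values, 90.68 and 65.52, were those of normoxia, no-SPP1 replicate 3 and hypoxia, no-SPP1 replicate 1, which held the lowest medium values of HSPA5, HSP90B1, PDIA6 and PDIA4. CALR was not low in the former, with 48 counts, the most of any medium library. The other 9 medium libraries ran from 20.73 to 39.86, mean 31.1 ± 6.81. Washed, normoxia, no-SPP1 had the highest of the 13 group means, 75.67 ± 25.1 CPM (n = 3).

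**Figure D3:**
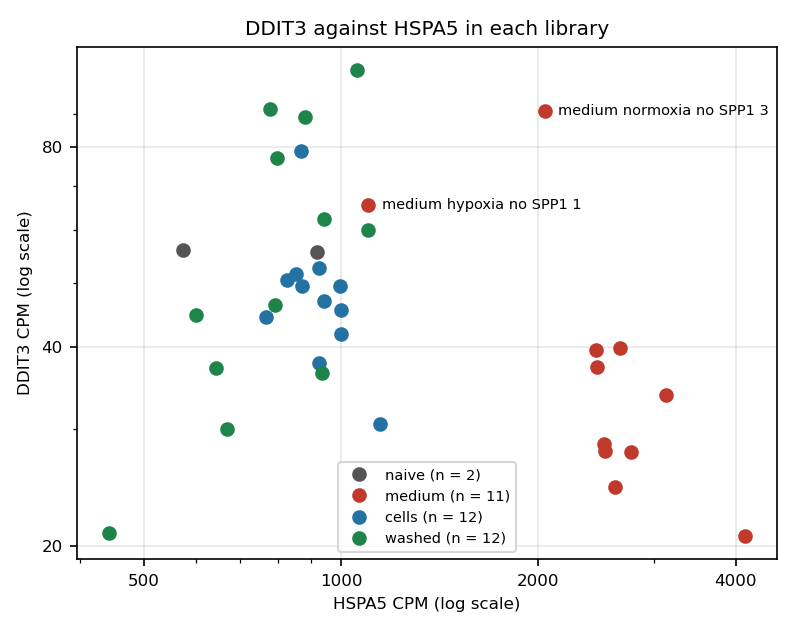
DDIT3 against HSPA5 in each of 37 libraries, both in CPM on log scales, coloured by mode. The medium libraries with the most DDIT3, 90.68 and 65.52 CPM, are those with the least HSPA5, 2045 and 1098 CPM, and the other 9 have under 40 CPM of DDIT3.

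Over the 37 libraries, log2 CPM of HSPA5 and HSP90B1 had a Pearson r of 0.919, and HSP90B1 and PDIA6 of 0.902. All 21 pairs among the 6 chaperones and isomerases and XBP1 had a positive r, from 0.427 to 0.919. These points share modes and library scaling, and within a mode the picture was uneven. In the medium mode (n = 11) all 21 were positive, 0.168 to 0.933, in the washed mode 17 (n = 12) and in the cells mode 10 (n = 12). With DDIT3, all 7 were negative in the medium mode, from −0.894 (XBP1) to −0.305, whereas 6 of 7 were positive in the washed mode. Without the pair that stood apart (n = 9), 16 of the 21 were positive, from −0.556 to 0.858, and the 7 with DDIT3 ran from −0.809 to 0.643, with 1 positive. All are descriptions of these libraries.

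Exposure to medium was first set against naive splenocytes, with edgeR's quasi-likelihood test and Benjamini-Hochberg adjustment over the 5193 IDs. Folds are model estimates in which the 4 groups of a mode weigh equally, and p-values measure the spread between libraries, which may be technical. Of the 9 tested genes, 5 were higher in medium and 0 lower, while 17.1% of all tested IDs were higher and 15.3% lower. HSPA5 rose by 1.80 on the log2 scale (SE 0.283, 3.48-fold, adjusted p = 8.81e-06) and HSP90B1 by 1.70 (SE 0.273, 3.26-fold, adjusted p = 1.12e-05). PDIA6 rose by 1.74 (SE 0.402, adjusted p = 0.00119), PDIA3 by 1.59 (SE 0.597, adjusted p = 0.038) and CALR by 1.61 (SE 0.623, adjusted p = 0.0442). XBP1 at 1.88 (SE 0.80; with no filter 2.01, adjusted p = 0.0805), PDIA4 at 0.90 (SE 0.385, adjusted p = 0.0698), DDIT3 at −0.49 (SE 0.413, adjusted p = 0.375) and ATF4 at −0.13 (SE 0.812, adjusted p = 0.92) did not pass. The median log2 change was 1.61 over the 9 genes and 0.12 over all tested IDs.

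With 2 naive libraries, single libraries weighed on this count. It was 3 without naive replicate 1, without naive replicate 2 or without medium, hypoxia, no-SPP1 replicate 3. When medium, normoxia, no-SPP1 replicate 3 was left out, PDIA4 was at 1.06 and XBP1, as a description, at 2.10. HSPA5, HSP90B1 and PDIA6 passed in all 13 fits that left out a library, with adjusted p up to 0.00708, 0.00426 and 0.0395. CALR lost its call in 6 of these 13 (adjusted p up to 0.297, without naive replicate 1), and PDIA3 in 4 (up to 0.302, without naive replicate 2). The CALR losses came without either naive library and without medium, hypoxia, SPP1 replicate 1, hypoxia, no-SPP1 replicate 2 or 3, or normoxia, SPP1 replicate 3. Those of PDIA3 came without either naive library and without medium, normoxia, no-SPP1 replicate 2 or hypoxia, no-SPP1 replicate 3. Without all 6 libraries that stood apart, PDIA4 was at 1.09, against 0.90 with them, and DDIT3 at −0.93, against −0.49. XBP1, as a description, was at 2.15 without them.

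Exposure to the cells themselves gave no called gene of the 9 against naive splenocytes, while 13.9% of all tested IDs were higher and 13.4% lower. In edgeR none had an unadjusted p under 0.05, and DESeq2 also called 0. The log2 changes ran from −1.22 (ATF4, SE 0.818, adjusted p = 0.284) to 0.37 (CALR, SE 0.611, adjusted p = 0.695). HSPA5 was at 0.31 (SE 0.25) and HSP90B1 at 0.13 (SE 0.239). Without cells, hypoxia, no-SPP1 replicate 2 the count became 1. Without the 4 libraries set apart on the second component ATF4 was lower by 1.98, with an adjusted p of 0.0269. Washed cells likewise gave 0 of 9 against naive, with 0 at an unadjusted p under 0.05 and 0 in DESeq2, against 17.5% of IDs higher and 17.1% lower. Their log2 changes ran from −0.90 (XBP1, SE 0.85) to 0.17 (PDIA6, SE 0.363).

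The modes were then compared with each other. In the cells mode, XBP1 and 6 of the other 8 genes were lower than in medium and 0 higher, while 23.4% of tested IDs were higher and 25.3% lower. HSP90B1 was 2.98-fold lower (log2 −1.57, SE 0.131, adjusted p = 8.75e-12) and HSPA5 2.81-fold lower (−1.49, SE 0.135, adjusted p = 5.43e-11). PDIA6 was 2.90-fold lower (adjusted p = 4.5e-08), PDIA4 2.02-fold (adjusted p = 5e-05), PDIA3 2.64-fold (adjusted p = 0.000106) and CALR 2.36-fold (adjusted p = 0.000607). ATF4 at −1.10 (SE 0.471, adjusted p = 0.0524) and DDIT3 at 0.26 (SE 0.231, adjusted p = 0.361) did not pass. XBP1 was at −1.68 (SE 0.371), and with no filter at −1.68 (adjusted p = 3.29e-05). The median was −1.32 over the 8 genes other than XBP1 and −0.02 over all tested IDs.

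In the washed mode, XBP1 and 6 of the other 8 genes were lower than in medium and 1 was higher, with 30.2% of IDs lower and 28.6% higher. HSPA5 was 3.29-fold lower (−1.72, SE 0.136, adjusted p = 1.42e-12), CALR 3.32-fold (−1.73, adjusted p = 1.06e-05) and HSP90B1 3.05-fold (−1.61, adjusted p = 2.89e-12). PDIA6 was 2.98-fold lower (adjusted p = 1.69e-08), PDIA3 2.78-fold (adjusted p = 4.7e-05) and PDIA4 2.22-fold (adjusted p = 7.52e-06). DDIT3 was 1.45-fold higher (0.54, SE 0.232, adjusted p = 0.0446), and ATF4 was at −0.64 (SE 0.465, adjusted p = 0.242). XBP1, with 0 to 4 counts per washed library, was at −2.78 (SE 0.423), and with no filter at −2.78 (adjusted p = 9.63e-11). The median was −1.52 over the 8 genes other than XBP1 and −0.03 over all tested IDs. The comparisons with medium and with naive share libraries, so they are not independent of each other.

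The lower calls of the 6 chaperones and isomerases held against both modes in all 23 fits each that left out a library. The smallest changes among these for HSPA5 were −1.36 (cells) and −1.60 (washed). The higher DDIT3 in washed libraries did not hold as well. It lost its call in 11 of 23 fits, with log2 changes from 0.33 (adjusted p = 0.238, without medium, normoxia, no-SPP1 replicate 2) to 0.92. These 11 left out medium, normoxia, no-SPP1 replicate 2; normoxia, SPP1 replicates 1 and 3; hypoxia, no-SPP1 replicates 2 and 3; hypoxia, SPP1 replicates 2 and 3; and washed, hypoxia, SPP1 replicate 2 or the replicate 3 of the other washed groups, 1 library at a time. Without both medium libraries set apart on the first component the DDIT3 change was 0.97, and without the 4 on the second 0.75. Without all 6 it was 1.25. These libraries were picked from these same data. The medium pair held the highest medium DDIT3 values, 90.68 and 65.52 CPM, and the 4 included the lowest washed value, 20.92 CPM. Leaving them out therefore enlarges this difference by construction. In cells against medium, DDIT3 was at 0.71 without the medium pair, against 0.26 with it. ATF4 in cells against medium passed without cells, hypoxia, no-SPP1 replicate 2 (−1.89, adjusted p = 0.00068), and in 5 other fits without 1 library each: cells, normoxia, no-SPP1 replicate 1 (adjusted p = 0.015), cells, hypoxia, SPP1 replicate 3 (0.0412), cells, normoxia, SPP1 replicate 3 (0.0441), and medium, hypoxia, no-SPP1 replicate 1 (0.0466) or normoxia, no-SPP1 replicate 3 (0.0499).

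The wash itself gave 0 called genes of 9 in washed against cells, while 4.16% of IDs were higher and 3.08% lower, and DESeq2 also called 0. XBP1 alone had an unadjusted p under 0.05, at −1.09 (SE 0.462, adjusted p = 0.134). HSP90B1 was at −0.03 (SE 0.126), PDIA6 at −0.04 (SE 0.189) and HSPA5 at −0.22 (SE 0.13, adjusted p = 0.301). With no filter the adjusted p of XBP1 was 0.288 (edgeR). Without all 6 libraries set apart XBP1, as a description, was at −1.38.

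**Figure D4:**
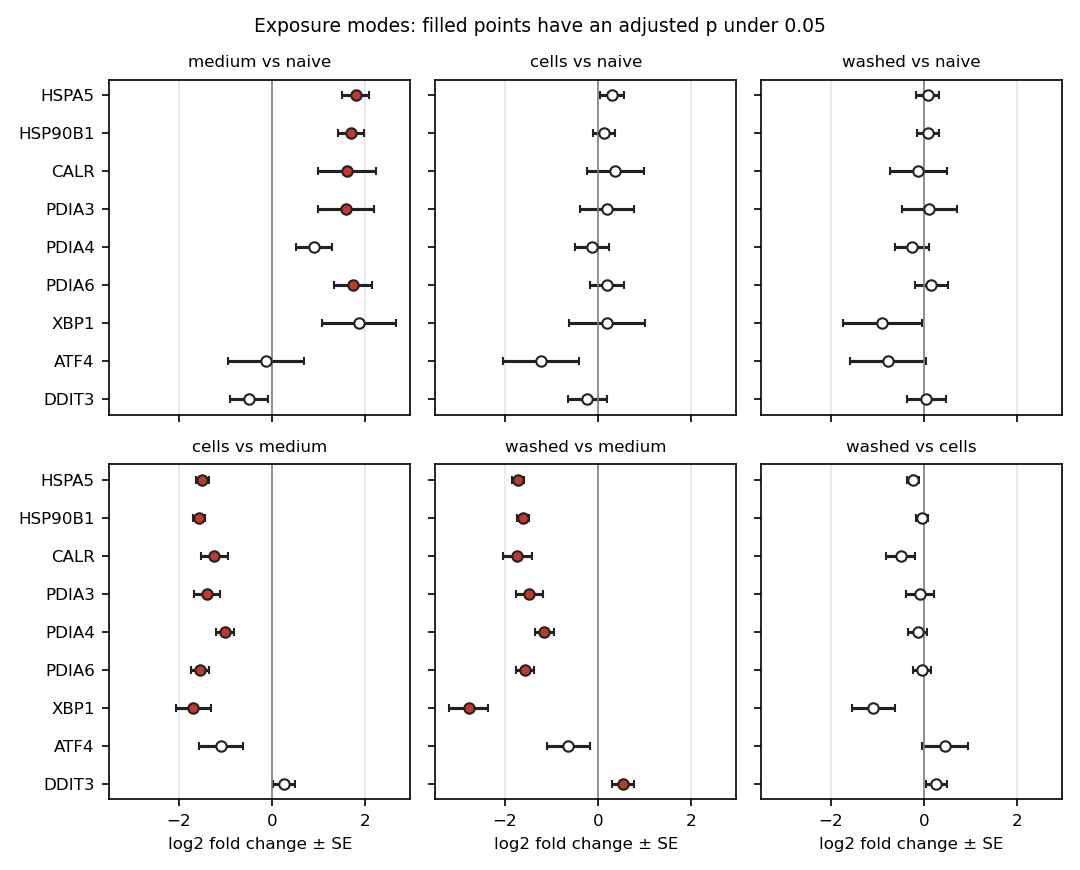
Log2 fold change ± SE of the 9 tested genes in the 6 comparisons between modes and naive splenocytes; filled points have an edgeR adjusted p under 0.05. HSPA5 to XBP1 lie right of 0 in medium against naive and left of 0 in both comparisons with medium, between −1.02 and −2.78, and DDIT3 lies right of 0 in both; XBP1 was tested only through its medium counts.

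Oxygen of the RAW264.7 cells was compared within each mode. In medium, 0 of the 9 genes passed, against 0.077% of IDs. In cells, 0 passed, against 3.62%, and in washed, 0 passed, against 0.0385%. In none of the 3 modes did any of the 9 reach an unadjusted p under 0.05 in edgeR, and DESeq2 called 0 in each. HSP90B1 was at 0.36 (SE 0.19, adjusted p = 0.707) in medium, 0.21 (SE 0.178) in cells and −0.04 (SE 0.178) in washed libraries. HSPA5 was at −0.21 (SE 0.194), 0.02 (SE 0.184) and −0.19 (SE 0.184). CALR ran from 9 to 14 counts in the normoxia cells libraries and from 5 to 29 in hypoxia (0.84, SE 0.422, adjusted p = 0.293). The 29 counts were those of no-SPP1 replicate 2, which stood apart on the second component.

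SPP1 was compared in the same way. In medium 0 of 9 passed, against 0.25% of IDs. In cells 0 passed, against 0% of IDs, and in washed 0 passed, against 0.0193%, and DESeq2 called 0 in each mode. In medium, the 6 libraries with SPP1 held 5246 to 8049 CPM of HSP90B1 and the 5 without it 2633 to 7647, so the groups overlapped. The log2 difference was 0.50 (SE 0.191, adjusted p = 0.415, edgeR). It was the only one of the 9 under an unadjusted 0.05 there, and no gene was in cells. Of the 5 libraries without SPP1, 2 were the pair that stood apart, and without them the difference was 0.17 (adjusted p = 0.977).

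In washed libraries 3 genes had an unadjusted p under 0.05 for SPP1, all lower. PDIA4 was at 6.626 to 28.91 CPM in SPP1 libraries (median 13.24) and at 17.67 to 31.81 in those without it (median 27.54), a difference of −0.83 (SE 0.29, adjusted p = 0.323, edgeR). HSPA5 was at 442.6 to 881.4 CPM in SPP1 libraries against 779.6 to 1101 (−0.47, SE 0.185, adjusted p = 0.396), and PDIA6 at 28.16 to 115.7 against 105.1 to 185.7 (−0.63, SE 0.27, adjusted p = 0.41). All 3 pairs of ranges overlapped. Of the 6 washed SPP1 libraries, 3 stood apart on the second component. Without the 4 libraries set apart there, PDIA4 was at −0.85, HSPA5 at −0.23 and PDIA6 at −0.29, with adjusted p of 0.945, 0.945 and 0.949.

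**Figure D5:**
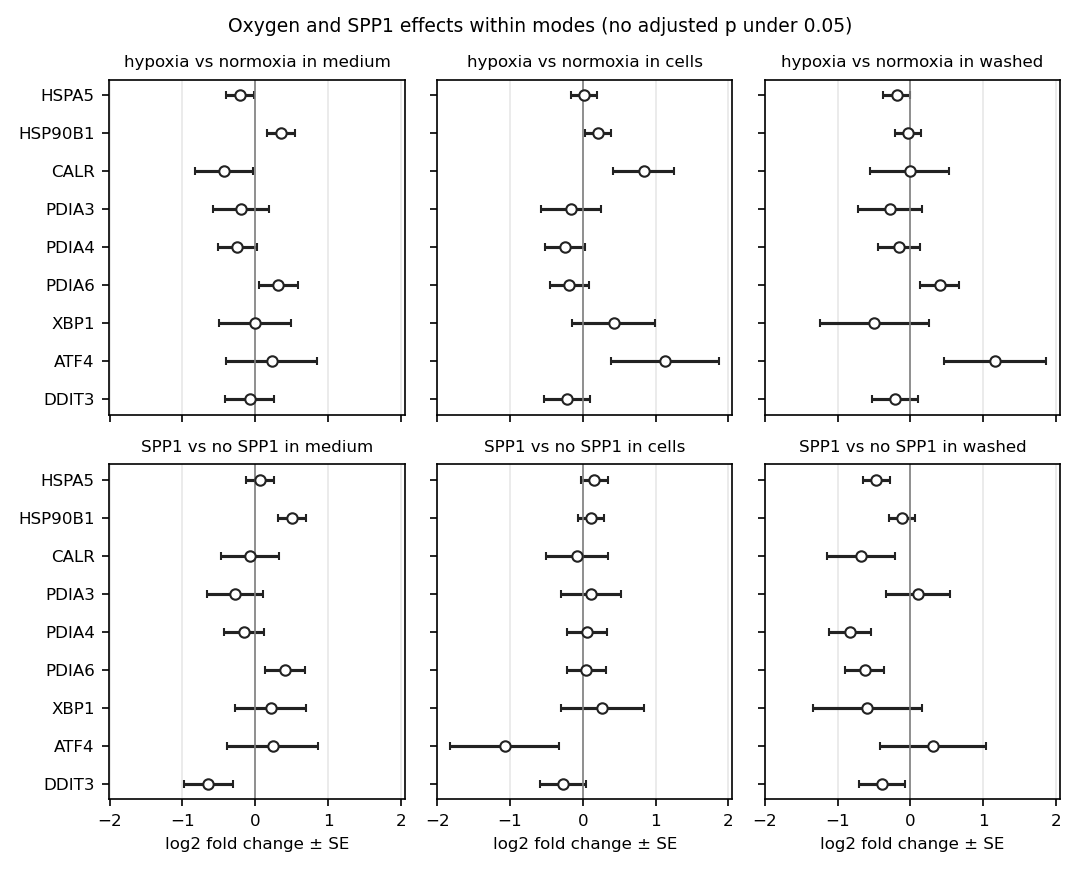
Log2 fold change ± SE of the 9 tested genes for hypoxia against normoxia (upper row) and SPP1 against no SPP1 (lower row) within each mode. No gene passed at an edgeR adjusted p under 0.05; the widest errors are those of ATF4 and XBP1, and PDIA4, HSPA5 and PDIA6 lie left of 0 for SPP1 in washed libraries.

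Differences between modes in these effects were tested directly. For hypoxia, cells minus medium gave 0 of 9 (0.481% of IDs) and washed minus cells 0 (0.173%). CALR had the one unadjusted p under 0.05, at 1.27 (SE 0.58, adjusted p = 0.518) in cells minus medium. It was 0.87 without cells, hypoxia, no-SPP1 replicate 2 (adjusted p = 0.825, edgeR). Without the medium pair that stood apart it was 0.99, and without all 6 libraries 0.60. For SPP1, cells minus medium gave 0 (0% of IDs) and washed minus cells 0 (0%). In the latter, HSPA5 at −0.62 (SE 0.261) and PDIA4 at −0.88 (SE 0.401) were under an unadjusted 0.05, both with an adjusted p of 0.635. The interaction of SPP1 and oxygen gave 0 of 9 in medium (0% of IDs), in cells (0%) and in washed libraries (0%). PDIA4 in medium was at 1.18 (SE 0.543, unadjusted p = 0.0363, adjusted p = 1), the only one of the 9 under 0.05 in the 3 interactions. Without medium, normoxia, no-SPP1 replicate 2, 1 of the 2 libraries of its group, it was 0.18 (adjusted p = 0.988). DESeq2 called 0 in all 7 of these tests.

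Any difference among the 13 groups was found for 7 of the 9 genes, while 53.6% of all tested IDs passed. Among these 7, XBP1 passed the filter on low counts only through medium libraries. Its difference was thus built into its being tested and is a description. ATF4 (adjusted p = 0.154) and DDIT3 (adjusted p = 0.416) did not. HSP90B1 had the largest F of the 9, 21.9. By Pearson r of log2 CPM over the 37 libraries, the IDs most like HSP90B1 were ENSG00000154174.8 (0.944) and ENSG00000105991.10 (0.934). Those most like the mean of the 9 genes were ENSG00000149428.19 (0.938) and ENSG00000259051.1 (0.934). No table used here names these IDs, and the values describe likeness only.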

How the data were processed

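RNA of 37 splenocyte samples was made into QuantSeq 3′ mRNA libraries with unique molecular identifiers and sequenced as single reads. The authors trimmed reads with bbduk, aligned them to GRCh38 (hg38) with STAR 2.7.10b and counted them with featureCounts of Rsubread 2.0.3. They deposited raw counts per human gene ID, and 100% of values were whole. Whether molecular identifiers entered the counting, and how multiply aligned reads and strand were treated, was not given in the sources used here. Reads of mouse genes unlike the human sequence may be lost, so a low count can reflect sequence rather than level, and intervals and floors cover counting error only. Promoters were read from RefSeq (GRCm38.p6), a mouse reference that differs from the build of the alignment.

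Groups came from the treatment labels and replicate numbers from titles. The methods describe independent repeats of the co-culture, but the sources used here do not say whether the libraries of a group came from separate repeats or mice. No 2 replicates were duplicates (chi-square per degree of freedom 2.78 to 42.9 in 35 pairs). Of 60708 IDs, 22657 had a count, and filterByExpr (minimum count 10) kept 5193, which held 97.8% to 99.4% of counts. With edgeR 4.0.16 (R 4.3.3), TMM factors and 1 mean per group were fitted to all 37 libraries. Quasi-likelihood F tests were adjusted by Benjamini-Hochberg over all 5193 IDs, and an adjusted p under 0.05 was called. No test for this experiment is stated in the methods. SE is the absolute log2 change over the root of F, and log2 CPM used a prior count of 2. The scripts were tested on simulated data.

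Alternatives were DESeq2 1.42.0, its size factors (RLE), no filter, the replicate number as a block, the compared groups alone, and fits without single libraries or without those set apart. The fit without all 6 of these was added after the data were seen. All 10 genes are named by the ID and symbol that the selection pairs, and 4 other IDs by likeness: the 2 with the highest r with the mean of the 9 tested genes and the 2 with the highest r with the gene of largest F. Other unfolded protein response genes and cell type markers had been listed by symbol, but the symbol tables used here are for mouse and match 0 of the human IDs, so neither list was applied. The genes and lists were chosen with earlier results of these data known.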

Additional observations from a re-analysis of the deposited data

Results flagged for a closer look

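Each of the 9 tested genes was examined in the 6 combinations of exposure mode and oxygen (54 sets of 5 or 6 libraries), and 11 sets held a library far from the rest by Dixon's 95% criterion. Chance marks about 1 set in 20.

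In medium, hypoxia, no-SPP1 replicate 1, HSPA5 was low at 1098 CPM and PDIA6 at 129.5, and DDIT3 was high at 65.52. In medium, normoxia, no-SPP1 replicate 3, DDIT3 was high at 90.68 CPM. These are the medium libraries that stood apart on the first principal component. In medium, normoxia, no-SPP1 replicate 2, HSPA5 was high at 4135 CPM and PDIA4 at 92.28. Its group has 2 libraries.

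ATF4 was high in cells, hypoxia, no-SPP1 replicate 2, at 31.62 CPM, and in washed, hypoxia, SPP1 replicate 1, at 17.7, where HSP90B1 was low at 1152. Both libraries stood apart on the second component. The remaining sets were DDIT3 in cells, normoxia, no-SPP1 replicate 2, high at 78.99 CPM, and PDIA6 in cells, hypoxia, SPP1 replicate 3, high at 123.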

How the results depend on the processing

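The count of genes called in medium against naive splenocytes was 5 as reported, all of them higher. It moved when single libraries were left out, down to 3 without medium, hypoxia, no-SPP1 replicate 3. It also moved without all 6 libraries set apart, where DDIT3 was lower, at −0.93. In cells against naive, the reported 0 became 1 without the 4 libraries set apart on the second component, 1 without all 6, and 0 to 1 without single libraries. In washed against cells, where the reported count was 0, XBP1, as a description, was at −1.38 without all 6. The count was 7 to 9 in cells against medium, 7 to 9 in washed against medium and 7 to 8 over the 13 groups, and 0 in all fits of the other comparisons. Where the naive or the medium, normoxia, no-SPP1 group was left with 1 library, that library was assumed to vary like the others. By gene, the call of CALR in medium against naive was lost with RLE (adjusted p = 0.0535) and with the replicate block (0.0598), and DDIT3 in washed against medium with RLE (0.0724), no filter (0.0844), DESeq2 (0.0686) and the compared groups alone (0.078). ATF4 in cells against medium was called with RLE (0.0418) and DESeq2 (0.0321). PDIA4 in medium against naive, 0.90 as reported, was at 0.95 without the 4 libraries set apart on the second component. Without the 2 set apart on the first it was at 1.14. XBP1, tested only through its medium counts, was at 1.93 and 2.20 in these fits, as a description. The causes were not tested.

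With the replicate number as a block, 4 genes were called in medium against naive, 7 in cells against medium and 8 in washed against medium. The numbers did not pair the libraries: of 210 pairs with the same number, 36 had residuals correlated over 0.1 (mean 0.009, range −0.477 to 0.53), against a mean of −0.00433 for different numbers. RLE moved the median log2 change of all tested IDs by up to 0.112, DESeq2 by 0.114 and no filter by 0.115. XBP1 in washed against cells could not be tested in the groups alone. XBP1, ATF4 and TRIB3 had the fewest counts, and the parts of depth and of the alignment in this were not tested. The 2 naive libraries limit all comparisons with naive.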
